A study of Mus musculus with 30 samples.

Results

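Untreated retinas of mouse pups with oxygen-induced retinopathy (OIR) were compared with untreated retinas of pups kept in normoxia, with attention to genes outside the well-known hypoxia and vessel programmes. The 6 arrays were chosen by their titles, 3 labelled OIR without treatment and 3 labelled normoxia without treatment, out of 30 arrays in the series. The other 24 arrays are OIR retinas injected with saline or human cells and enter here only through the shared estimate of spread and as values set side by side. OIR pups were kept with their nursing dams in 75% oxygen from postnatal day 7 (P7) for 5 days and then returned to room air. The normoxia pups had no oxygen exposure in the labels, and neither group was injected. All 6 retinas carry the stage P17 in the labels. The written protocol leaves both P12 and P17 possible as the day of death, and the series text ties P12 to pups injected at P5, so P17 is taken from the label. The labels name no strain, genotype or sex. Each array holds total RNA of 1 retina from 1 pup. The titles number the 3 arrays of a group only as replicates, and they are taken here as separate animals.

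In the OIR model, high oxygen makes the young retina lose its central capillaries, and the inner retina becomes hypoxic after the return to room air. New vessels then grow into the vitreous, and Müller glia become reactive. The outer retina is fed mainly by the choroid, whereas bipolar, amacrine, horizontal and ganglion cells depend on the retinal vessels that are lost. Müller glia span all layers, take up transmitter and potassium, and carry water through aquaporin channels at their vascular endfeet.

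Values are deposited log2 levels per gene, and differences are OIR minus normoxia on the log2 scale. Where 3 values are listed for a group, they stand in the order of replicates 1, 2 and 3. Errors on differences are standard errors, and a gene is said to have risen or fallen when its limma p, adjusted by Benjamini-Hochberg over 12393 genes, was under 0.05. The tissue label was checked with marker lists. Rod genes averaged 12.77 to 12.98 over the 6 arrays, and cone, bipolar, amacrine, ganglion cell and Müller lists averaged 8.93 to 10.89. Genes of liver, pancreas and testis, which retina should lack, averaged 5.29 to 5.70.

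By this rule 4.56% of the genes differed between the groups, 445 of them higher in OIR (3.59%) and 120 lower (0.968%). Fully separated arrays, with no overlap between groups, were far more common, at 12.9% of genes with all OIR arrays above and 13.3% with all below. Of all 12393 genes, 6590 had a mean below normoxia and 5803 above, to be set beside such counts in the lists that follow. Of the 445 rises, 348 lay outside the lists of hypoxia, vessel, matrix and cell cycle genes (78.2%, against 98.2% of all genes tested), and all 120 falls lay outside them. Those lists held 224 of the genes tested and are not complete. Gja4, Gng11 and Tgfbi, described below as genes of vessels or matrix, rose and lie outside them. Falls were smaller than rises. The median size was 0.55 for falls and 0.85 for rises, and 8 falls against 160 rises reached 2-fold. The share of changed genes that rose was 78.8% on the deposited scale, 64.5% after quantile normalization and 53.8% after median centring, with 246 and 339 falls in place of 120. The plot of differences by level shows the falls spread over all levels.

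**Figure D1:**
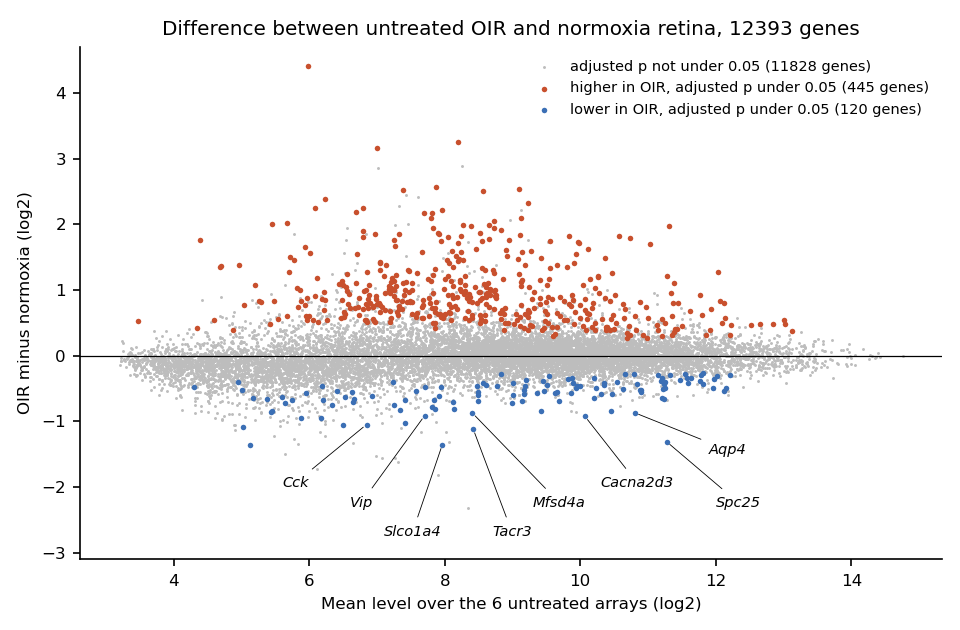
Difference between untreated OIR and normoxia retina (log2) against the mean level over the 6 arrays (log2), 1 point per gene. Red points are the 445 genes that rose and blue points the 120 that fell; the largest rise is 4.41 and the largest fall -1.36.

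Single arrays carried much of these counts. OIR replicate 3 was the most extreme OIR array in 313 of the 445 rises (70.3%) and 75 of the 120 falls (62.5%), and normoxia replicate 3 was the highest normoxia array in 93 of the 120 falls (77.5%). Without OIR replicate 3 there were 220 rises and 22 falls, without normoxia replicate 3 there were 289 and 35, and without OIR replicate 2 there were 330 and 69. Genes of reactive gliosis averaged 8.54, 8.86 and 10.37 in the OIR retinas and 7.93 to 7.98 in normoxia, so OIR replicate 3 also stood apart there. Lens genes averaged 8.58, 6.19 and 6.76 in normoxia and 6.16, 5.98 and 7.14 in OIR, highest in normoxia replicate 1. Pigment epithelium genes, of which none passed, averaged 7.82, 7.90 and 8.10 in normoxia and 7.66, 7.59 and 7.65 in OIR, without overlap (median -0.35, 12 of 16 below normoxia). The part of either tissue in the falls was not tested. Dim genes lay slightly lower in OIR, with a median of -0.14 among the 2479 dimmest genes and -0.03 to 0.04 in brighter classes of that size, and 20 of 22 genes of liver, pancreas and testis were below normoxia (median -0.18). After quantile normalization the median among the dimmest genes was -0.00. For the genes of liver, pancreas and testis it was then -0.06, with 16 of 22 still below normoxia. The part of this shift in the falls of dim genes was not tested.

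Neuropeptide genes gave some of the largest falls among genes of neurons. Of 49 measured neuropeptides and their receptors, 3 fell (6.12%, beside 0.968% of all genes) and 1 rose. Vip, the vasoactive intestinal peptide of a class of amacrine cells, read 7.94, 8.17 and 8.37 in normoxia and 7.30, 7.20 and 7.25 in OIR. All OIR retinas lay below all normoxia retinas, and the 3 OIR values lay close together. The difference was -0.91 ± 0.19 (adjusted p = 0.00565). Vip passed under all 15 refitted alternatives, with adjusted p from 0.00193 to 0.0459.

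Cck, coding the amacrine peptide cholecystokinin, read 7.41, 7.45 and 7.26 in normoxia and 6.48, 6.57 and 5.91 in OIR, again without overlap. It fell by 1.05 (SE 0.28, adjusted p = 0.0327). Tacr3, the neurokinin B receptor found on OFF bipolar cells, read 9.13, 8.74 and 9.07 in normoxia and 8.10, 8.01 and 7.47 in OIR. Its arrays did not overlap, and it fell by 1.12 (SE 0.28, adjusted p = 0.0189), with -0.72 at its other probe set. OIR replicate 3 was lowest for both genes. Over the alternatives the adjusted p ran from 0.00167 to 0.209 for Cck and from 0.000244 to 0.145 for Tacr3. Both upper ends came without OIR replicate 3. Leaving out any single normoxia array also ended the call of Cck (0.0695 to 0.0793), and leaving out normoxia replicate 1 or 3 that of Tacr3 (0.0602 and 0.0842).

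Npy, the neuropeptide Y gene, moved the other way. It read 9.41, 9.41 and 9.51 in normoxia and 10.10, 10.15 and 10.42 in OIR, with a rise of 0.78 ± 0.16 (adjusted p = 0.00488, range 0.0024 to 0.0506 over the alternatives, the upper end without OIR replicate 3). Tac2, the mouse gene for neurokinin B, the ligand of the Tacr3 receptor, read 10.45, 10.29 and 9.92 in normoxia and 10.80, 10.99 and 11.001 in OIR. The ligand thus stood above normoxia in every OIR retina while its receptor stood below, although the ligand's difference of 0.71 ± 0.23 did not pass (adjusted p = 0.0728). Grp, coding gastrin-releasing peptide, stood at -0.83 ± 0.24 and narrowly missed the threshold (adjusted p = 0.0506). Over the whole list, 11 of 49 members were above normoxia, and the median was -0.17, beside -0.02 for all genes. The list median was -0.08 after quantile normalization.

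The 2 peptide genes and the receptor gene that fell can be compared in their upstream sequence, shown because they are the falls of this list. Given are the 250 bases before the RefSeq transcription start (assembly GRCm38.p6), 5′ to 3′ on the gene's strand. Capitals mark the 5-base core TGACG, or CGTCA where it lies on the other strand, of the element that binds the cyclic AMP responsive factor CREB.
Vip (chr10:5638968-5639217, plus strand): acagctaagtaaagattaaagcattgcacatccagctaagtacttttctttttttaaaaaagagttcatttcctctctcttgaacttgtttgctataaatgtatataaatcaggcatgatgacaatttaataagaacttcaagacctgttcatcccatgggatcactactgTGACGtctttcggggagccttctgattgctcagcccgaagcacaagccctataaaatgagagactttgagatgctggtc
Cck (chr9:121495695-121495944, minus strand): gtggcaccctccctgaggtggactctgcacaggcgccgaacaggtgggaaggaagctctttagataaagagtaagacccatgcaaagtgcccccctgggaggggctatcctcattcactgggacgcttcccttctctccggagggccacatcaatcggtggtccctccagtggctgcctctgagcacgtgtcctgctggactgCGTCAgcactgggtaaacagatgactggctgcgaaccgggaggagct
Tacr3 (chr3:134828757-134829006, plus strand): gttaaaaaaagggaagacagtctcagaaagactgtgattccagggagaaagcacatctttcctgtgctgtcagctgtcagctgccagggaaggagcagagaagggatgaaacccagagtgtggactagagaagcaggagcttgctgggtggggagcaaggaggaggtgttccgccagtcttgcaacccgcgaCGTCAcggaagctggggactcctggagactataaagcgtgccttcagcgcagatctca
Each window held 1 match, with its first base at -79 in Vip, -47 in Cck and -58 in Tacr3 relative to the start. The same search on either strand found a match in 17.8% of all 32851 promoters of that length. Shares of genes are in another unit, since a gene counted when any of its promoters matched. The gene share was 27.0% of the 9887 tested genes that had a promoter sequence. Among genes lower in OIR it was 28 of 94 (29.8%), among genes higher 92 of 355 (25.9%), and in the peptide and receptor list 17 of 39 (43.6%). The share among genes that fell was thus close to that of all genes tested. A match is a stretch of letters, and binding was not measured.

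Bipolar cells, which relay photoreceptor signals to the inner retina, had 4 of 23 measured list members lower in OIR (17.4%, beside 0.968% of all genes) and none higher. Besides Tacr3 these were Scgn, Grik1 and Rgs7. Scgn, the calcium sensor secretagogin of cone bipolar cells, read 10.54, 10.54 and 10.48 in normoxia and 10.17, 9.99 and 9.47 in OIR. Grik1, a kainate receptor subunit used by OFF bipolar cells, read 7.75, 7.55 and 7.98 in normoxia and 7.24, 7.04 and 6.51 in OIR. Neither gene's groups overlapped, and OIR replicate 3 was lowest in both. Scgn fell by 0.64 (SE 0.14, adjusted p = 0.00705) and Grik1 by 0.83 (SE 0.20, adjusted p = 0.0155). Grik1 was also the 1 of 21 glutamate receptor and vesicular transporter genes that passed (4.76%, beside 0.968% of all genes). Rgs7, a regulator of the G protein cascade of ON bipolar cells, fell by 0.53 (SE 0.15, adjusted p = 0.0495) and lost its call without any single one of the 6 arrays (0.0511 to 0.281). Without OIR replicate 3 no list member passed, with adjusted p = 0.0908 for Scgn and 0.152 for Grik1, and without normoxia replicate 3 Scgn alone did, Grik1 being at 0.105. Across all alternatives the adjusted p of Scgn ran from 0.00173 to 0.106 and that of Grik1 from 0.00881 to 0.152. The list median was -0.24, and 18 of 23 members were below normoxia. Trpm1, the ON bipolar channel, overlapped between the groups (7.27, 6.41 and 6.93 against 6.08, 6.50 and 7.39).

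Horizontal cells, the lateral interneurons of the outer retina, had 1 of 9 members lower (11.1%, beside 0.968% of all genes), Calb1. This calcium buffer gene read 10.99, 11.11 and 11.39 in normoxia and 10.91, 10.84 and 10.17 in OIR. OIR replicate 3 was lowest, while replicates 1 and 2 lay just under the lowest normoxia value. The fall of 0.53 (SE 0.14, adjusted p = 0.0363, range 0.0123 to 0.294) shrank to 0.29 without OIR replicate 3 and also lost its call without normoxia replicate 2 or 3 (0.0549 and 0.23). Lhx1, the transcription factor that marks these cells, stood at -0.44 ± 0.19 without passing (adjusted p = 0.18).

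**Figure D2:**
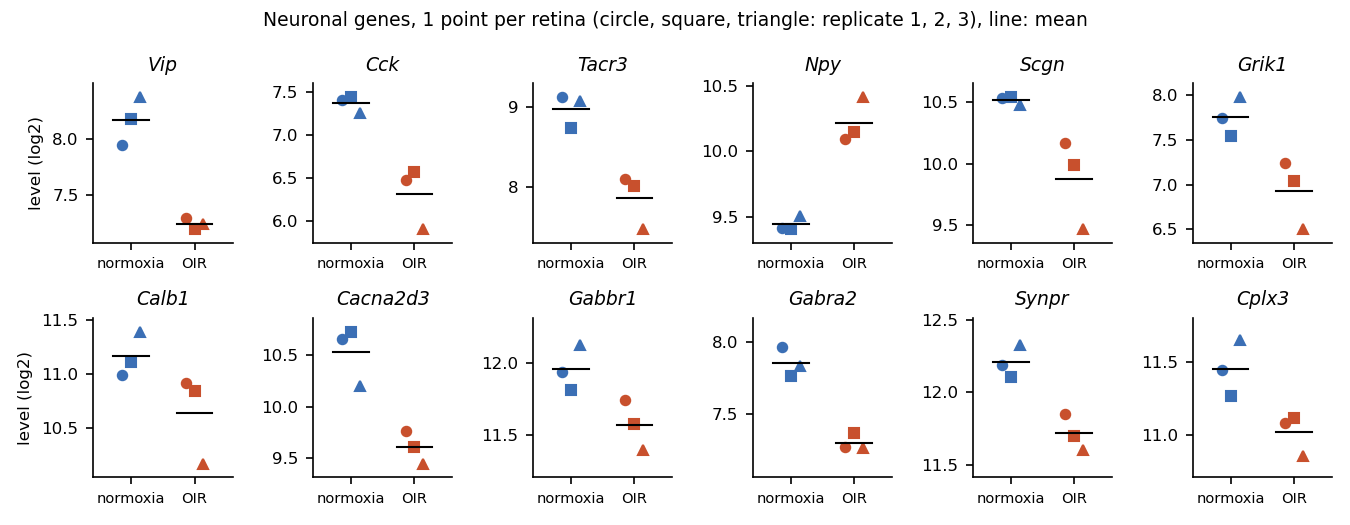
Levels (log2) of 12 neuronal genes in the 3 normoxia (blue) and 3 OIR (red) retinas, 1 point per retina with the group mean as a line; axes differ between panels. In every panel the groups are apart, and Npy is the 1 gene higher in OIR. The triangle, OIR replicate 3, is lowest for Cck, Tacr3, Scgn, Grik1, Calb1, Cacna2d3, Synpr and Cplx3, and by a small margin for Gabra2.

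Inhibitory transmission genes lay low as a group. Among 25 measured genes of GABA and glycine signalling, 23 were below normoxia, with a median of -0.38 on the deposited scale, -0.32 after quantile normalization and -0.24 without OIR replicate 3. In 13 of the 25 all OIR arrays lay below all normoxia arrays (52%, against 13.3% of all genes). Only 2 passed (8%, beside 0.968% of all genes). Gabra2, a GABA-A receptor subunit, read 7.96, 7.76 and 7.83 in normoxia and 7.28, 7.37 and 7.27 in OIR. The OIR values were nearly equal, and the fall was 0.55 (SE 0.15, adjusted p = 0.0403). Gabbr1, a GABA-B receptor subunit, fell by 0.38 (SE 0.10, adjusted p = 0.0273), while its other probe sets gave -0.29 to 0.02. Gad1, the GABA-synthesising enzyme of amacrine and horizontal cells, stood at -0.61 ± 0.22 without passing (adjusted p = 0.103; -0.21 at its other probe set). Neither call held without OIR replicate 3 (adjusted p = 0.146 for Gabra2 and 0.208 for Gabbr1), and leaving out any other array ended that of Gabra2 too (0.0502 to 0.111). For Gabbr1, leaving out OIR replicate 2 or normoxia replicate 1 or 3 did the same (0.0511 to 0.185). The lowest adjusted p over the alternatives was 0.0112 for Gabra2 and 0.0123 for Gabbr1.

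Synaptic vesicle and active zone genes showed 3 falls among 35 measured (8.57%, beside 0.968% of all genes). Synpr, coding the vesicle protein synaptoporin, read 12.19, 12.11 and 12.32 in normoxia and 11.85, 11.70 and 11.60 in OIR, a fall of 0.49 (SE 0.12, adjusted p = 0.0136, range 0.00428 to 0.103). Cplx3, the complexin of ribbon synapses, read 11.45, 11.27 and 11.66 against 11.08, 11.12 and 10.86, a fall of 0.44 (SE 0.12, adjusted p = 0.0319, range 0.0102 to 0.212). Amph, coding the endocytic protein amphiphysin, fell by 0.29 (adjusted p = 0.043, range 0.0237 to 0.311). The 3 genes are bright, and their groups did not overlap. None of them passed without OIR replicate 3 (0.103, 0.203 and 0.191) or without normoxia replicate 3 (0.0888, 0.212 and 0.311). Cplx3 also lost its call without normoxia replicate 1 (0.06), and Amph without OIR replicate 1 or 2 (0.0711 and 0.086).

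Among voltage-gated sodium and calcium channels 1 of 30 fell (3.33%, beside 0.968% of all genes). Cacna2d3, an auxiliary calcium channel subunit, read 10.66, 10.73 and 10.20 in normoxia and 9.76, 9.61 and 9.45 in OIR. All OIR retinas were below the lowest normoxia retina, and the fall of 0.92 (SE 0.20, adjusted p = 0.00572) passed under all 15 refitted alternatives (adjusted p from 2.5e-05 to 0.0493). The calcium channel of photoreceptor terminals, Cacna1f, stood at -0.41 ± 0.13 (adjusted p = 0.0802), and Scn1a, a sodium channel subunit, at -0.86 ± 0.38 (adjusted p = 0.208). Of 62 potassium channel genes none fell and 2 rose (3.23%, close to the 3.59% of all genes), Kcne3 by 2.01 ± 0.19 (adjusted p = 9.72e-07), which is also on the vessel list, and the smooth muscle subunit Kcnmb1 by 0.60 ± 0.17 (adjusted p = 0.0421, with overlapping groups and -0.21 at its other probe set). Kcnmb1 lost its call without OIR replicate 2 or 3 or normoxia replicate 1 or 3 (0.124 to 0.204), after median centring (0.0696) and without the groups injected at P5 (0.0591), against a lowest adjusted p of 0.00475. Of the 62, 44 lay below normoxia (median -0.19), beside 6590 of all 12393 genes (median -0.02). In the list of monoamine, acetylcholine and purine receptors 1 of 43 rose (2.33%, under the 3.59% of all genes). This was Drd4, the dopamine D4 receptor of photoreceptors, from 11.53, 11.48 and 11.44 to 12.02, 12.22 and 12.06. Its rise of 0.62 ± 0.14 (adjusted p = 0.00789) passed under all 15 refitted alternatives (0.00058 to 0.0485).

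Photoreceptor, amacrine and ganglion cell lists held no gene that passed, and the amacrine peptides Vip and Cck stand on the peptide list. None of 29 rod genes, 13 cone genes, 25 amacrine genes and 31 ganglion cell genes passed, with medians of -0.03, 0.08, -0.11 and -0.14. In the same order, 19, 3, 19 and 23 members lay below normoxia, beside 6590 of all 12393 genes. All OIR arrays lay below all normoxia arrays in 8, 0, 5 and 9 members, beside 13.3% of all genes. Without the groups injected at P5, 3 amacrine and 3 ganglion cell genes fell, and with array weights 2 amacrine genes. At a background of 0.968% lower and 3.59% higher, a count of 0 in lists of this size does not set them apart from all genes. The cone arrestin gene Arr3 stood at -0.24 (adjusted p = 0.405) at the probe set used, but at -0.80 at its other probe set, which passed among all probe sets (adjusted p = 0.00419). The cone opsins Opn1sw and Opn1mw stood at 0.14 ± 0.16 and 0.14 ± 0.13, and Nefl, the neurofilament gene of ganglion cell axons, at -0.14 ± 0.36. Opn1mw read 11.77, 11.82 and 11.66 in normoxia and 11.93, 11.89 and 11.83 in OIR. Th, the dopamine-synthesising enzyme of a rare amacrine class, was dim (6.10, 6.19 and 6.01 against 5.94, 5.94 and 5.37) and stood at -0.35 ± 0.19 (adjusted p = 0.312). The rod median was 0.02 without OIR replicate 3 and -0.10 after median centring, so its direction depends on those choices. In whole retina, fewer cells of a type and less RNA per cell cannot be told apart.

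**Figure D3:**
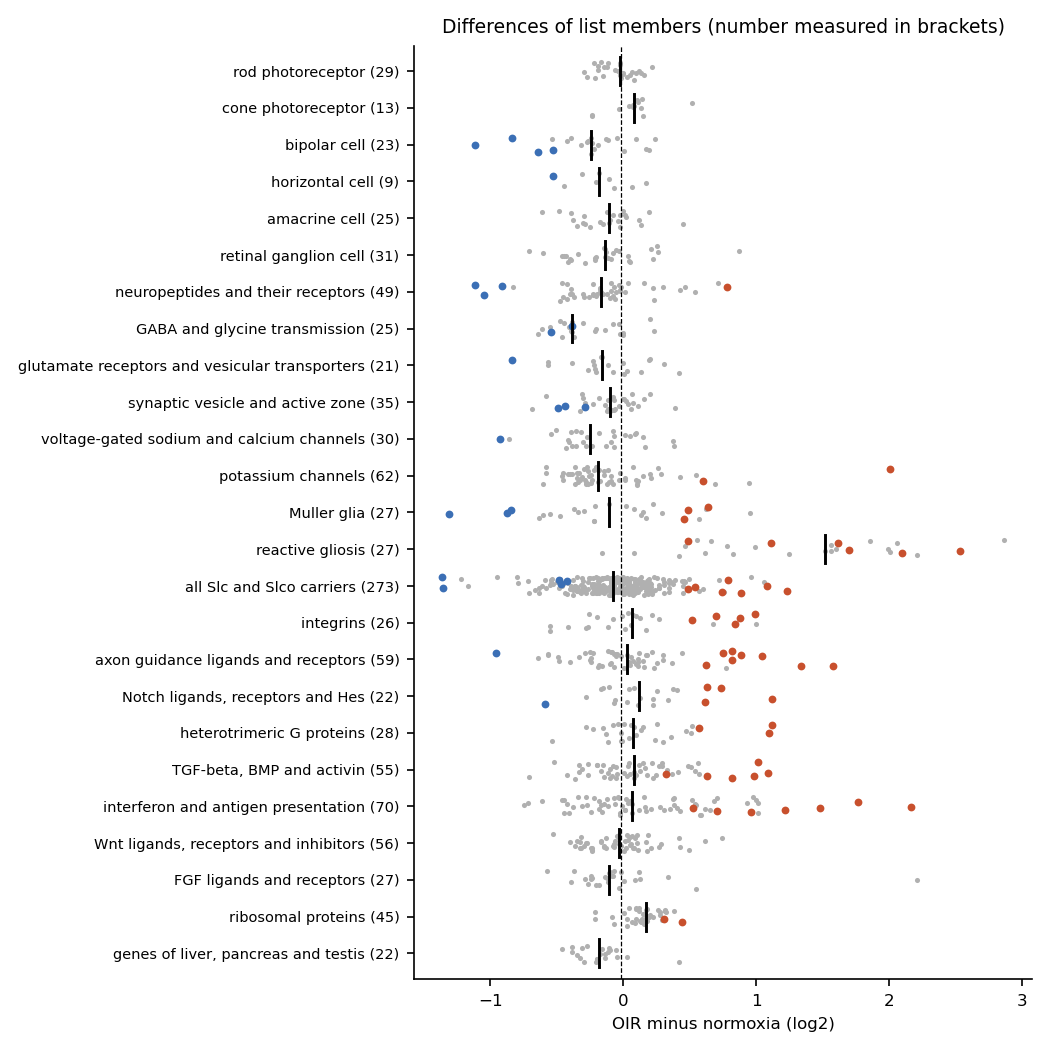
Differences (log2) of the members of 25 gene lists, 1 point per gene, with the list median as a bar and the median of all genes as a dashed line. Blue points fell, red points rose and grey points did not pass; among the neuronal lists blue points lie in the bipolar, horizontal, peptide, GABA, glutamate, synaptic and calcium channel lists, and none in the rod, cone, amacrine and ganglion cell lists.

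Müller glia genes changed in both directions in the fit of all 30 arrays. Of 27 measured list members 3 fell and 3 rose (11.1% each way, beside 0.968% and 3.59% of all genes). Without OIR replicate 3, and also in the fit of the 6 arrays alone, 1 fell and none rose. After median centring 6 fell and 1 rose. On the list of reactive gliosis, which shares the risen gene Vim, 6 of 27 rose (22.2%) and none fell. Of its members 26 were above normoxia, with a median of 1.52. Without OIR replicate 3 that list had 2 rises, 25 members above normoxia and a median of 0.64. It had 3 rises in the fit of the 6 arrays alone and 13 without the groups injected at P5. Aqp4, the water channel of the endfeet, read 11.33, 11.05 and 11.35 in normoxia and 10.63, 10.53 and 9.95 in OIR. The groups did not overlap, and the fall of 0.87 (SE 0.17, adjusted p = 0.00203, -0.80 at its other probe set) held in 14 of 15 refitted alternatives. The exception was the fit of the 6 arrays alone (adjusted p = 0.0536, lowest 0.000802). Kcnj10, the potassium channel that works beside Aqp4 at the endfeet, read 10.04, 9.80 and 10.04 in normoxia and 9.34, 9.45 and 9.28 in OIR. Its groups were also fully apart, but its difference of -0.60 ± 0.19 passed only after quantile normalization, after median centring and in the fit of the 6 arrays alone (adjusted p = 0.017, 0.0167 and 0.0351, against 0.0758 on the deposited scale and 0.256 at most).

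Abca8a, a lipid transporter gene enriched in these cells, read 10.88, 10.75 and 10.9997 in normoxia and 10.41, 10.26 and 9.43 in OIR. It fell by 0.85 (SE 0.18, adjusted p = 0.00659, range 0.00191 to 0.116), but by 0.54 without OIR replicate 3 (adjusted p = 0.0741). Spc25, a kinetochore gene that is also bright in Müller glia, read 12.01, 11.95 and 11.83 in normoxia and 11.39, 11.09 and 9.38 in OIR. In OIR replicate 3 it was thus more than 1.5 below the other OIR retinas, and without that array its fall of 1.31 became 0.69 (adjusted p = 0.23, lowest 0.00498). It also lost its call without any single normoxia array (0.0572 to 0.0735). Its other probe set gave -0.98 and passed among all probe sets (adjusted p = 0.018).

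Sox9, a transcription factor that Müller glia keep from progenitors, rose by 0.63 ± 0.17 (adjusted p = 0.0289), with 0.34 at its other probe set, and the intermediate filament gene Vim by 0.49 ± 0.14 (0.0461). The other probe sets of Vim gave 0.98 and 0.62, and both passed among all probe sets (adjusted p = 0.00239 and 0.00739). Espn, an actin-bundling gene, rose by 0.46 ± 0.11 (0.0179). At the probe sets used, Sox9, Vim and Espn did not pass without OIR replicate 3 (0.204, 0.304 and 0.0509). Further losses came for Sox9 without OIR replicate 1 or any normoxia array (0.054 to 0.0791) and after quantile normalization or median centring (0.0523 and 0.0536), for Vim without OIR replicate 2 or normoxia replicate 1 or 2 (0.0515 to 0.145) and after median centring (0.121), and for Espn without OIR replicate 1 or normoxia replicate 3 (0.0941 and 0.157). The lowest adjusted p over the alternatives was 0.00489, 0.0291 and 0.00878. Core Müller genes did not pass on the deposited scale. Glul, the glutamine synthetase, stood at -0.34 ± 0.12 (adjusted p = 0.103), and Slc1a3, the glutamate carrier GLAST, at 0.17 ± 0.11 (0.39). Rlbp1, the retinaldehyde-binding protein, stood at -0.47 ± 0.15 (0.0661) and passed in 6 of 15 refitted alternatives (range 0.0233 to 0.415). The list median was -0.11, and 0.07 without OIR replicate 3.

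Some genes of glial stress did not pass although their groups were fully apart. Edn2, coding the endothelin 2 that stressed photoreceptors release, read 5.25, 5.56 and 5.95 in normoxia and 6.77, 7.70 and 10.88 in OIR. Socs3, the feedback inhibitor of gp130 cytokine signalling, read 7.01, 6.61 and 6.41 against 7.18, 7.44 and 9.95, and Stat3, the transcription factor of that pathway, 10.04, 9.92 and 9.74 against 10.49, 10.53 and 11.66. In all 3 genes every OIR retina was above every normoxia retina, and OIR replicate 3 was far above the others. None passed (adjusted p = 0.213, 0.198 and 0.106), and the other probe sets of Stat3 gave 0.14 and 0.69. None of the 24 genes of the gp130 list passed, where 3.59% of all genes rose and 0.968% fell. Of the 24, 13 lay below normoxia, beside 6590 of all 12393 genes, and the median was -0.04. Without the groups injected at P5 the list had 3 rises and 1 fall.

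Carriers of solutes showed falls and rises in nearly equal number. Of 273 Slc and Slco genes 7 rose (2.56%) and 5 fell (1.83%), beside 3.59% and 0.968% of all genes. Slco1a4, an organic anion carrier of brain and retinal vessels, read 8.46, 8.52 and 8.94 in normoxia and 7.51, 7.62 and 6.73 in OIR. The fall (adjusted p = 0.00497) was among the largest of any gene, and the level was lowest in OIR replicate 3, without which the difference was -1.08 (adjusted p = 0.0619, range 0.00096 to 0.0619). Mfsd4a, a carrier-like membrane protein gene outside these families, read 8.72, 8.65 and 9.17 in normoxia and 8.004, 8.09 and 7.81 in OIR. Its fall of 0.87 (SE 0.14, adjusted p = 0.000239, -0.60 at its other probe set) had the smallest adjusted p among falls and passed under all 15 refitted alternatives (0.000133 to 0.028). Slc20a1, a sodium-phosphate carrier, fell evenly from 10.51, 10.59 and 10.58 to 10.08, 10.20 and 10.13. That fall of 0.42 (SE 0.09, adjusted p = 0.00561, range 0.000489 to 0.0694) lost its call among the refitted alternatives in the fit of the 6 arrays alone, lies under the 1.5-fold minimum, and was -0.16 at its other probe set.

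The other falls among carriers were less stable. Slc6a12, a betaine and GABA carrier, fell by 0.47 (SE 0.13, adjusted p = 0.0406). In its Slc6 family 11 of 13 measured members were below normoxia, beside 6590 of all 12393 genes. Slc66a1, a lysosomal amino acid exporter, fell by 0.48 (SE 0.14, adjusted p = 0.0469). Slc22a29, an organic ion carrier read at 5.97, 5.02 and 6.44 in normoxia and 4.69, 5.05 and 3.59 in OIR, passed although its groups overlapped (adjusted p = 0.029). All 3 lost their calls without OIR replicate 3 (0.197, 0.126 and 0.241) and without normoxia replicate 3 (0.205, 0.369 and 0.212). Without OIR replicate 2 the adjusted p was 0.0998 for Slc6a12 and 0.0885 for Slc66a1. Slc66a1 reached 0.129 without OIR replicate 1, Slc6a12 0.0817 without normoxia replicate 2 and 0.135 after quantile normalization, and Slc22a29 0.0768 without normoxia replicate 1. The lowest values over the alternatives were 0.0199, 0.0237 and 0.0073.

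Of 15 genes of the Slc7 and Slc3 amino acid carriers 2 rose (13.3%, beside 3.59% of all genes) and none fell, with 8 below normoxia and a median of -0.05. Among 6 Slc1 carriers 1 rose (16.7%). Slc7a1, the cationic amino acid carrier that brings in arginine, read 8.31, 8.29 and 7.89 in normoxia and 9.28, 9.09 and 8.79 in OIR, a rise of 0.89 ± 0.14 (adjusted p = 0.000229, range 3.41e-05 to 0.0319). Slc7a5, the large neutral amino acid carrier of barrier endothelium, rose from 9.49, 9.58 and 9.52 to 9.98, 10.18 and 10.06, by 0.54 ± 0.11 (adjusted p = 0.00304, range 0.00106 to 0.0363). Slc1a4, a neutral amino acid exchanger, rose from 10.40, 10.69 and 10.70 to 11.20, 11.17 and 11.66, by 0.74 ± 0.14 (adjusted p = 0.00171, range 0.000383 to 0.0526), with 0.63 to 0.67 at its other probe sets. No group overlapped in these genes. The first pair passed under all 15 refitted alternatives and Slc1a4 under all but the fit of the 6 arrays alone.

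Single members of other families rose, 1 of 8 Slc12 cation-chloride carriers (12.5%, 5 below normoxia) and 1 of 7 Slc16 monocarboxylate carriers (14.3%, 4 below normoxia), beside 3.59% of all genes. Slc12a4, the potassium-chloride cotransporter KCC1, read 6.99, 6.81 and 6.19 in normoxia and 7.70, 7.92 and 8.06 in OIR, a rise of 1.23 ± 0.25 (adjusted p = 0.00429, range 0.00118 to 0.0462). Slc16a3, the lactate exporter MCT4 and a known hypoxia target, rose by 1.08 ± 0.21 (adjusted p = 0.003). Slc39a8, a zinc and manganese importer, rose by 0.79 ± 0.19 (adjusted p = 0.0167, range 0.000397 to 0.0793), with 0.25 at its other probe set, and lost its call without OIR replicate 1 or 2 (0.0634 and 0.0793). The glucose carrier of the barrier, Slc2a1, read 13.24, 13.10 and 12.88 against 13.40, 13.41 and 13.48. Its groups were apart, and its difference of 0.36 ± 0.11 missed the threshold (adjusted p = 0.0589). Its other probe sets gave 0.43, which passed among all probe sets (adjusted p = 0.0164), and 0.12. The probe set used passed with dim genes left out, after quantile normalization, with trend and robust settings, without normoxia replicate 1 and without the groups injected at P5 (0.0442, 0.0352, 0.0273, 0.032 and 0.0316).

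**Figure D4:**
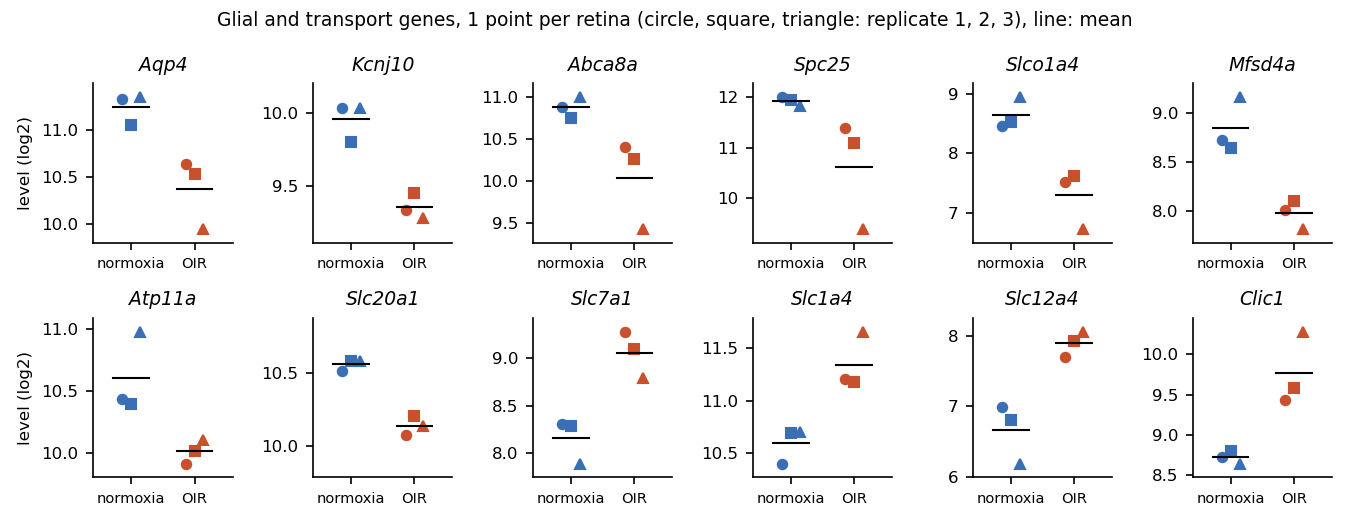
Levels (log2) of 12 glial and transport genes in the 3 normoxia (blue) and 3 OIR (red) retinas, 1 point per retina with the group mean as a line; axes differ between panels. The first 8 panels are lower in OIR and the last 4 higher, without overlap. Among the falls, the triangle, OIR replicate 3, is lowest for Aqp4, Kcnj10, Abca8a, Spc25, Slco1a4 and Mfsd4a.

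Water and chloride channels differed by member. Of 8 aquaporins 1 fell, Aqp4, and 1 rose (12.5% each way, beside 0.968% and 3.59% of all genes). The rise was Aqp1, the water channel found in photoreceptors and a class of amacrine cells, by 0.75 ± 0.19 (adjusted p = 0.0223, range 0.00477 to 0.141), from 9.37, 9.84 and 9.26 to 10.13, 10.53 and 10.08. Aqp1 lost its call without OIR replicate 2 or normoxia replicate 1 or 3 (0.127, 0.0703 and 0.141). Of 17 chloride channel genes 3 rose (17.6%, beside 3.59% of all genes) and none fell. Clic1, an intracellular chloride channel protein, rose by 1.04 ± 0.20 (adjusted p = 0.00202, range 0.00105 to 0.0399), and Clic4 of the same family by 0.90 ± 0.19 (0.00453, range 0.00186 to 0.0543), with 0.89 to 1.03 at its other probe sets. Clic1 passed under all 15 refitted alternatives, and Clic4 under all but the one without OIR replicate 3. Gja4, the endothelial connexin 37, rose by 0.997 ± 0.20 (adjusted p = 0.00368, range 9.19e-05 to 0.0399). Atp11a, a phospholipid flippase, read 10.43, 10.40 and 10.98 in normoxia and 9.92, 10.02 and 10.11 in OIR, a fall of 0.59 (SE 0.13, adjusted p = 0.00813). Its other probe set gave -0.13, and its adjusted p was 0.0868 without normoxia replicate 3, in which it was highest (range 0.00496 to 0.118). Trpm7, a magnesium channel with a kinase domain, fell by 0.41 (SE 0.09, adjusted p = 0.00967), whereas its other probe sets gave -0.14 to 0.01. Its adjusted p was 0.0835 without normoxia replicate 3 (range 0.00361 to 0.115). None of 21 subunits of the vacuolar proton pump passed, which does not set them apart at 0.968% lower and 3.59% higher among all genes. Of the 21, 17 were below normoxia, beside 6590 of all 12393 genes.

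Integrins, the receptors for matrix, had 5 of 26 members higher (19.2%, beside 3.59% of all genes) and none lower. Itga5, the fibronectin receptor subunit, rose from 7.70, 7.60 and 7.74 to 8.39, 8.53 and 8.76, by 0.88 ± 0.14 (adjusted p = 0.000284, 0.62 at its other probe set), and the laminin receptor subunit Itga6 by 0.84 ± 0.17 (0.00381, 1.25 at its other probe set). The common beta subunit Itgb1 rose by 0.70 ± 0.14 (adjusted p = 0.00247), while its other probe sets ran from -0.36 to 0.99. The integrin median was 0.07 and turned to -0.01 after median centring, so the family as a whole had no settled direction. In the Notch family 4 of 22 rose (18.2%) and 1 fell (4.55%), beside 3.59% and 0.968% of all genes. Among the rises, Dll4 is also on the vessel list, and Heyl and Notch3 are on the pericyte and mural cell list. Notch3, Notch4, Heyl and the tip cell ligand Dll4 rose by 0.61, 0.74, 1.12 and 0.63. Their other probe sets gave 0.99 for Notch3, 0.95 for Notch4, 0.11 and 0.49 for Heyl and 1.19 for Dll4, and those of Notch3, Notch4 and Dll4 passed among all probe sets (adjusted p = 0.000801, 0.00405 and 0.000104). Notch3 lost its call without OIR replicate 2 or 3 or normoxia replicate 2 (0.0656 to 0.105) and after quantile normalization (0.0513), and Notch4 without OIR replicate 3 (0.0869). Dll1, the ligand carried by neural progenitors and neurons, fell. It read 9.24, 9.61 and 9.54 in normoxia and 8.78, 9.03 and 8.82 in OIR, a fall of 0.59 (SE 0.15, adjusted p = 0.0181, range 0.009 to 0.0915). Ligands of the same receptors thus moved in opposite directions. Leaving out OIR replicate 1 or 3 or normoxia replicate 2 or 3 ended the call of Dll1 (0.0666 to 0.0915). Dll4 lost its call without every single array other than OIR replicate 1 (0.0587 to 0.153), after quantile normalization (0.0707) and after median centring (0.0649).

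Axon guidance genes, which also pattern vessels, had 8 of 59 higher (13.6%, beside 3.59% of all genes) and 1 lower (1.69%). Among the rises, Plxnd1, Nrp1, Robo4, Ephb4 and Unc5b are also on the vessel list. The vascular guidance receptors Plxnd1, Nrp1 and Robo4 rose by 0.88 ± 0.12, 1.04 ± 0.16 and 1.58 ± 0.25, with 0.46 to 0.98 at the other probe sets of Nrp1. Ligands rose with them, Efna1, an ephrin, by 0.75 ± 0.12 (adjusted p = 0.000474, but 0.29 at its other probe set), and the semaphorins Sema5b by 0.62 ± 0.11 (0.000894) and Sema6d by 0.82 ± 0.15 (0.00131). Sema3c, a secreted semaphorin, was the single fall. It read 6.73, 6.38 and 6.84 in normoxia and 5.74, 5.64 and 5.70 in OIR, a fall of 0.96 (SE 0.26, adjusted p = 0.036, range 0.000118 to 0.166). The OIR values were almost equal and clearly below normoxia. The call was lost without any single array but normoxia replicate 2 (0.0662 to 0.166).

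G protein genes rose in 3 of 28 cases (10.7%, beside 3.59% of all genes). Gng11, a gamma subunit found in vessels, rose from 8.62, 8.34 and 8.72 to 9.49, 9.60 and 9.96, by 1.12 ± 0.16 (adjusted p = 0.000135, range 1.28e-05 to 0.0102), and Gng12 by 1.09 ± 0.23 (0.00568, but 0.0619 without OIR replicate 3, and 0.77 at its other probe set). Gnai2, an inhibitory alpha subunit, rose by 0.57 ± 0.11 (0.0017). Gng13, the gamma subunit of ON bipolar cells, lay below normoxia in every OIR retina (12.54, 12.33 and 12.49 against 11.93, 12.07 and 11.75) without passing (-0.54 ± 0.18, adjusted p = 0.0946). In the transforming growth factor beta family 6 of 55 rose (10.9%), among them the ligand Tgfb1 by 1.09 ± 0.21 (0.00224) and its receptor Tgfbr2 by 1.01 ± 0.17 (0.000578, other probe sets -0.26 to 0.57). The endothelial receptor Acvrl1, which is also on the vessel list, rose by 0.82 ± 0.11 (5.9e-05). In the list of Hippo targets, whose genes follow the YAP coactivator, Ajuba, Ccn1 and Axl rose by 0.84, 1.45 and 0.94, 3 of 20 (15%), with 0.06 at the other probe set of Axl, and none of these passed without OIR replicate 3 (0.0965, 0.145 and 0.155). Ccn1 and Axl also lost their calls without normoxia replicate 3 (0.0809 and 0.147), Axl without OIR replicate 2 (0.0693) and Ajuba without normoxia replicate 2 (0.0513).

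Of 70 interferon and antigen presentation genes 7 rose (10%, beside 3.59% of all genes) and none fell, with 41 above and 29 below normoxia and a median of 0.06. Markers of microglia and macrophages, cells that present antigen, moved with them, with 22 of 25 above normoxia. The list averaged 6.73 to 6.90 in normoxia and 7.48 to 7.71 in OIR. Of the 25, 3 passed (12%), C1qc, C1qb and Aif1, but 13 in the fit of the 6 arrays alone. Without OIR replicate 3 the count was 0, and without normoxia replicate 3 it was 1. Each of the 3 genes also lost its call without OIR replicate 2, and C1qb without normoxia replicate 1 or 2. The part of these cells in the antigen presentation rises was not tested. H2-Ab1, a chain of MHC class II, rose from 6.72, 6.41 and 7.07 to 8.67, 8.61 and 9.43, by 2.17 ± 0.41 (adjusted p = 0.00203, range 1.58e-05 to 0.0259), although its other probe sets gave 0.44 to 0.78. B2m, the light chain of MHC class I, rose by 1.22 ± 0.34 (0.0364) and the interferon-induced Ifitm3 by 1.48 ± 0.32 (0.00583). Neither passed without OIR replicate 3 (0.173 and 0.0619), and B2m lost its call also without every other single array except OIR replicate 1 (0.0703 to 0.095) and after median centring (0.0508). Of 66 interleukin and receptor genes 3 rose (4.55%) and 1 fell (1.52%), close to the 3.59% and 0.968% of all genes. The fall was Il31ra, a receptor of the interleukin 6 family, by 0.75 (SE 0.18, adjusted p = 0.0134, but 0.0783 without OIR replicate 3 and 0.09 without normoxia replicate 3).

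No gene passed among 56 Wnt genes, 27 fibroblast growth factor genes or 18 neurotrophin and GDNF family genes. Where 3.59% of all genes rose and 0.968% fell, counts of 0 in lists of this size do not set them apart. The Wnt list had 4 rises without the groups injected at P5, 3 with array weights and 1 without OIR replicate 3. Fgf2, a growth factor of stressed retina, read 8.16, 7.87 and 8.05 in normoxia and 9.31, 9.81 and 11.59 in OIR. It was above normoxia in every OIR retina by more than 1 on the log2 scale, yet did not pass, with OIR replicate 3 far above the others (2.21 ± 0.79, adjusted p = 0.113). In the circadian clock list 1 of 20 fell and 1 rose (5% each way, beside 0.968% and 3.59% of all genes). Dbp, a clock output factor, read 11.996, 12.09 and 12.02 in normoxia and 11.64, 11.65 and 11.50 in OIR, a fall of 0.44 (SE 0.10, adjusted p = 0.0071, -0.26 at its other probe set). Nfil3, the repressor that opposes Dbp at the same promoters, read 8.87, 8.99 and 8.81 against 9.21, 9.40 and 9.39, a rise of 0.45 ± 0.12 (adjusted p = 0.0265). Both pairs of groups were fully apart. The adjusted p without OIR replicate 3 was 0.0619 for Dbp (range 0.000616 to 0.0661) and 0.126 for Nfil3 (range 0.0167 to 0.126), and Nfil3 lost its call also without OIR replicate 2 or normoxia replicate 1 or 3 (0.0977, 0.061 and 0.125). The labels give no hour of collection. Esr1, the estrogen receptor alpha, was the single fall among 38 nuclear receptors (2.63%), at -0.72 ± 0.17 (adjusted p = 0.0155). It was dim (4.92 to 6.08) and did not pass after quantile normalization (0.0939) or without OIR replicate 3 or normoxia replicate 1 (0.153 and 0.0511).

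Large rises outside the hypoxia, vessel, matrix and cell cycle lists fell on genes of varied roles. Lcp1, the actin bundler of blood cells, rose from 7.49, 7.43 and 7.29 to 9.34, 9.23 and 9.57, by 1.98 ± 0.27 (adjusted p = 5.6e-05, range 1.03e-06 to 0.000861). Tgfbi, a matrix protein gene induced by transforming growth factor beta, rose from 5.88, 5.42 and 5.49 to 7.72, 8.12 and 7.50, by 2.18 ± 0.27 (adjusted p = 1.65e-05, range 5.54e-06 to 0.00109), and its other probe sets gave 1.91 to 2.78. In neither gene did an OIR retina stand apart from the other OIR retinas. Maff, a small Maf transcription factor of stress responses, rose from 6.82, 6.49 and 6.48 to 8.24, 8.46 and 9.64, by 2.18 ± 0.30 (adjusted p = 5.54e-05, range 2.61e-05 to 0.0131). Litaf, an endosomal protein gene induced by lipopolysaccharide, rose by 1.99 ± 0.34 (0.000594), and Tubb6, a beta tubulin, by 1.92 ± 0.34 (0.00119). B3gnt3, a glycosyltransferase, rose by 2.02 ± 0.24 (9.46e-06), Itih5, a hyaluronan-binding protein gene, by 1.85 ± 0.30 (0.000397) and Hsd17b2, a steroid dehydrogenase, by 1.81 ± 0.35 (0.00246). These 8 genes passed under all alternatives in which they were tested.

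Other large rises leaned on OIR replicate 3. Tnnt2, the cardiac troponin T gene, read 6.61, 6.92 and 6.26 in normoxia and 8.21, 8.43 and 10.82 in OIR, a rise of 2.56 ± 0.75 (adjusted p = 0.0496) that was 1.73 without that array (adjusted p = 0.312). It also missed the threshold after quantile normalization and median centring (0.0541 and 0.052) and without any other single array except OIR replicate 1 (0.0568 to 0.186). Capg, an actin-capping gene of macrophages, and Tgm2, a transglutaminase, rose by 1.80 and 1.84 (other probe sets of Tgm2 0.16 to 1.86) and had adjusted p of 0.129 and 0.135 without it. For Anxa2 (2.10), Tnfaip2 (1.89) and Synpo (1.87) the other probe sets of the gene gave 0.05 to 0.60, 0.07 and -0.18, so the probe sets disagree on the size. Tnfaip2 and Synpo had adjusted p of 0.129 and 0.0662 without OIR replicate 3, and Tnfaip2 0.0569 without normoxia replicate 1.

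Values of the injected OIR retinas stand beside these without a test of their own, and all are read against the same 3 normoxia arrays. The genes below were chosen for their distance from those arrays. Vip averaged 8.16 ± 0.22 (SD, n = 3) in normoxia, 7.25 ± 0.05 in untreated OIR and 6.83 to 7.67 in the injected groups. Cck averaged 7.37 ± 0.10, 6.32 ± 0.36 and 5.48 to 7.17, with the groups injected at P12 at 5.48 to 5.89. Slco1a4 averaged 8.64 ± 0.26, 7.29 ± 0.49 and 7.26 to 7.78. Each of these genes thus stayed under the normoxia mean in every injected group, as did 89 of all 120 falls. Sema3c did not follow that pattern: it averaged 6.65 ± 0.24 in normoxia and 5.69 ± 0.05 in untreated OIR, and 6.65 to 7.40 in the injected groups, each at or above the normoxia mean. Untreated OIR was thus the 1 OIR group with a mean under normoxia. The hybridisation controls averaged 13.05 to 13.53 on the arrays of the groups injected at P12, 11.64 to 12.80 on those of the groups injected at P5 and 12.26 to 12.61 on the 6 untreated arrays, and the part of this difference in the levels set side by side was not tested.

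**Figure D5:**
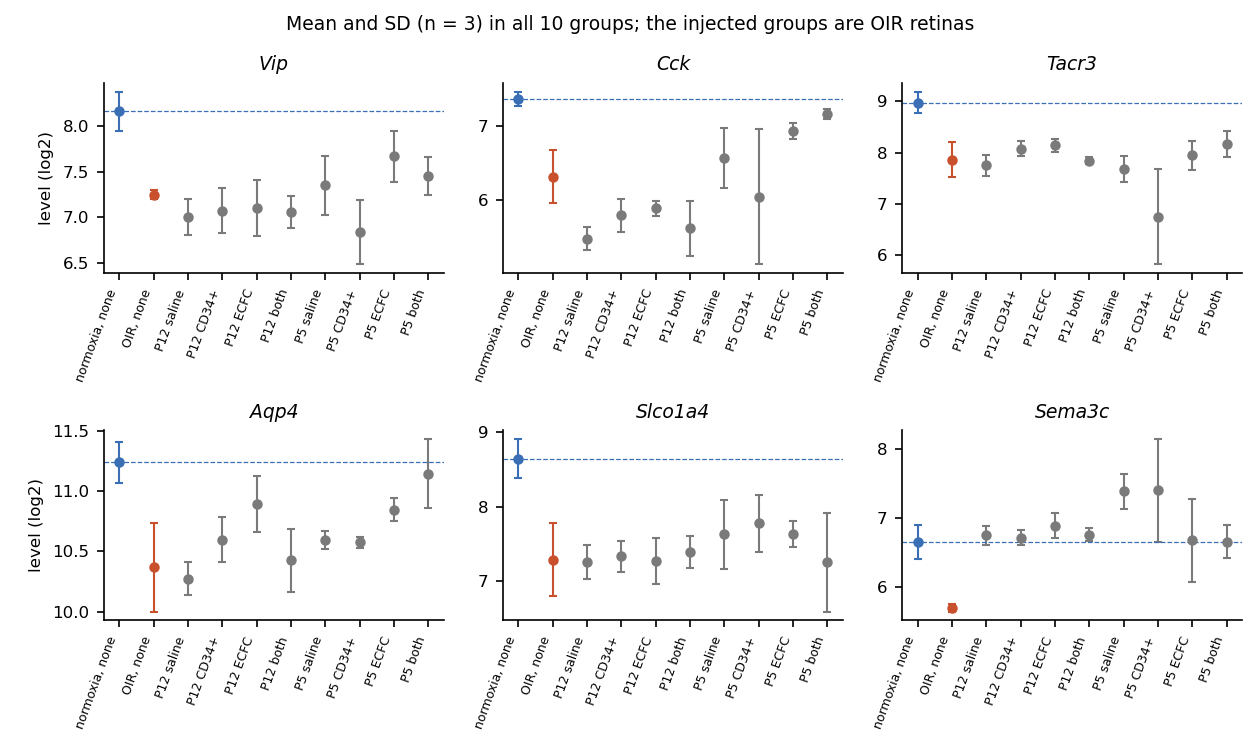
Mean level (log2) with SD (n = 3) of 6 genes in all 10 groups; blue is normoxia, red untreated OIR, grey the injected OIR groups, and the dashed line the normoxia mean. Vip, Cck, Tacr3, Aqp4 and Slco1a4 lie under the line in every OIR group, while Sema3c is under it in untreated OIR and at or above it in the injected groups.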

How the data were processed

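Each of the 30 samples is 1 expression array of 1 retina. Per the labels, the RNeasy kit and a QiaCube robot gave the RNA, the Ovation PicoSL WTA kit amplified 100 ng of it, and the Encore Biotin module labelled the product. The values used are the log2 expression values deposited by the authors, with Partek named per the submitters' processing notes; how background, probe summary and scaling were handled is not given in the sources used here. Arrays hold no read depth, so the 3 arrays per group limit the precision.

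Of 22690 probe sets 64 are controls, 20380 have 1 gene symbol, 691 several and 1555 none; probe sets without exactly 1 symbol were not named. Each gene was taken at the probe set that was brightest on average, giving 12393 genes, 4956 of them with several. limma 3.58.1 in R 4.3.3 (lmFit, eBayes, two-sided, Benjamini-Hochberg over all genes) was fitted to all 30 arrays in 10 groups (20 residual degrees of freedom), after being tested on simulated data. Tables were made with Python 3.11.15, pandas 2.3.3 and numpy 2.4.6.

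Genes were named by rule: the 30 largest falls, the 20 largest rises outside known lists, up to 5 members of each list each way, and 30 fixed genes. Some others are named for contrast after their values were seen. The comparison and the gene lists were chosen with earlier results of these data known. Equal replicate numbers were not treated as pairs (correlations of deviations -0.19, 0.24 and -0.03). The fit was repeated with all probe sets, quantile normalization, median centring, the 30% dimmest genes left out, a minimum of 1.5-fold, trend and robust settings, array weights, a replicate block, only the 6 untreated arrays, no groups injected at P5, and each array left out. The refitted alternatives counted for a gene exclude the minimum fold, and dim genes have 1 fewer. Promoters are from RefSeq (GRCm38.p6).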

Additional observations from a re-analysis of the deposited data

How the results depend on the processing

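Changed genes numbered 565, with 445 higher and 120 lower. With all probe sets the counts were 935, 743 and 192. The fit of the 6 untreated arrays alone gave 348 changed and 35 lower, and the fit without the groups injected at P5 gave 996 and 331. Lower genes numbered 214 with array weights, 339 after median centring, 246 after quantile normalization and 49 at a minimum of 1.5-fold. Of the 120 falls, 118 were shared after median centring, 108 after quantile normalization, 17 in the fit of the 6 arrays alone, 20 without OIR replicate 3 and 23 without normoxia replicate 3. With 1 array left out, changed genes ranged from 242 to 615, higher genes from 220 to 439 and lower genes from 22 to 176; where an arm then held 2 arrays, the spread was pooled over all groups. The replicate block gave 600 changed, 465 higher and 135 lower; the numbers do not pair the samples. Of 89 named genes that passed, 32 did so under every alternative. Trpm1 turned from -0.22 to 0.0685 without OIR replicate 1 and was -0.59 without OIR replicate 3. Arr3 turned from -0.24 to 0.0122 without OIR replicate 3 and was -0.395 without OIR replicate 1. The cause of these changes was not tested. Signal limits dim genes, whose median shifts with scaling.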
